A study of Mus musculus with 3 samples.

Results

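The wound and stress keratins described here are Krt6a, Krt6b, Krt16 and Krt17, 4 of the 26989 genes listed in any of 3 single-cell tables of mouse skin, and they were taken by symbol, whatever their values. The cells came from whole skin of C57BL/6 mice aged 9 weeks, captured with the Singleron GEXSCOPE system, with 1 library for each group. The UV plus vitamin D library came from irradiated skin given the agent that the labels call VD, taken to be the vitamin D named in the title. The UV library came from irradiated skin given saline, and the control library from unirradiated skin given saline. The labels give neither the dose or schedule of the radiation, nor the form of vitamin D, nor how many mice went into a library. By its title, the study asked whether vitamin D protects skin from UVB. With 1 library per group no difference could be tested across animals, so every comparison describes these 3 libraries, and the 95% intervals in square brackets cover counting error only. Those of levels and ratios take each count as an independent molecule. They are too narrow where counts are reads or gather in few cells.

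Keratins form the intermediate filaments of epithelial cells, in which a type II keratin such as Krt6a or Krt6b pairs with a type I keratin such as Krt16 or Krt17. In resting mouse skin these keratins are known from the hair follicle, nail and footpad, while the epidermis between the follicles relies on Krt5 and Krt14 in its basal layer and on Krt1 and Krt10 above it. After wounding or irritation the epidermis near the injury makes Krt6a, Krt6b, Krt16 and Krt17, which is why they serve as markers of stressed epidermis.

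Krt6a and Krt6b are neighbours with 0 annotated genes between them, and so are Krt16 and Krt17. The coding sequences of Krt6a and Krt6b were 97.6% identical, and 43.6% of the 50-base windows of the Krt6a transcript were also found in Krt6b. Over all other genes 49.5% of the Krt6a windows were found, with 150 of its 2229 windows in Krt5. None of the windows in the last 500 bases of the Krt6a or the Krt6b transcript was found in another gene. The 29 coding bases before the stop codon are shown because they hold a rare place where the coding sequences part, with the 2 differing bases in capitals (GENCODE transcripts, 5′ to 3′, chromosome 15):
Krt6a: cctcctccagcaAgaagagctacaggcaG
Krt6b: cctcctccagcaGgaagagctacaggcaC
The treatment of reads that fit both genes in the counting is unstated, so a count of Krt6b could in part be a misplaced read of Krt6a and the reverse. The control library held 1225 counts of Krt6a and 0 of Krt6b in interfollicular cells, and the part of misplaced reads in the other libraries was not tested. Krt16 shared 37.6% of its windows with other genes, mostly the gene model Gm11597 and Krt14, and 16.9% in its last 500 bases, so its level is uncertain by what such reads add. Krt17 shared 3.99% of its windows, mostly with Krt14, and 9.53% in its last 500 bases. The antisense gene Gm49428 overlaps Krt6a, and without knowledge of strand in the counting their reads cannot be told apart.

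Cells were sorted into classes by marker counts. Keratinocytes had at least 2% of their counts from 15 keratinocyte genes and at least 10 times as many as from the immune, fibroblast, vascular and melanocyte genes together. Interfollicular keratinocytes had 0 counts of Krt79, a keratin of the upper hair follicle, and numbered 5278 in the UV plus vitamin D library, 2398 in UV and 7247 in control. Follicle keratinocytes had at least 2 counts of Krt79 and numbered 206, 472 and 442 in the same order. Cells with at least 1% of their counts from the hair matrix and shaft list, or from the sebocyte list, were left out of both classes. Since Krt79 marks the upper follicle, keratinocytes of lower follicle parts could lie in the interfollicular class. Their share was not tested. The upper follicle list holds Krt79 itself, which the rule fixes, so the follicle class was checked on the rest of the list. Without Krt79 these genes summed to 18037, 23291 and 12474 CPM (counts of a gene scaled to 1000000 counts of the class) in follicle cells, against 4674, 4540 and 3630 CPM in interfollicular cells. The hair matrix and shaft list stood at 9.06, 58.6 and 11.8 CPM in follicle cells. The libraries differed in depth: the median interfollicular cell held 9827, 10162 and 7000 counts, and the 3 libraries kept 6199, 5451 and 9078 cells. Between 37 and 66 cell barcodes were shared by each pair of libraries. Markers of other lineages in interfollicular cells summed to 94.8, 288.5 and 101.6 CPM, highest in UV, and their part in the results below was not tested beyond the values given.

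Krt6a, a type II keratin made by stressed and follicular keratinocytes, was highest in UV in both classes. In interfollicular cells it stood at 16.6 CPM [15.6, 17.6] in UV plus vitamin D, 204.3 CPM [198.9, 209.8] in UV and 18.9 CPM [17.9, 19.99] in control. The UV library was therefore high, while the other two were close to each other. In follicle cells Krt6a stood at 60.4 CPM [50.1, 72.2], 449.2 CPM [430.6, 468.4] and 100.9 CPM [90.7, 111.9]. The follicle level was above the interfollicular one in every library, by 3.65-fold [2.99, 4.41] in UV plus vitamin D, 2.20-fold [2.09, 2.31] in UV and 5.34-fold [4.73, 6.01] in control.

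Krt6b, its near-identical neighbour, came almost wholly from the UV library. In UV plus vitamin D interfollicular cells it had 257 counts, or 4.22 CPM [3.72, 4.77], spread over 11 cells, and 1 of these cells held 42.8% of them. It had 4392 counts in UV interfollicular cells, or 167.2 CPM [162.3, 172.3], against 0 counts in the 7247 control cells, which allows a level of up to 0.0463 CPM there. The UV counts were spread more widely than those of UV plus vitamin D, over 210 cells, of which 15 held at least 50%. In follicle cells Krt6b had 0 counts in UV plus vitamin D, 420 counts in UV and 0 in control, and 46.9% of the UV counts came from 1 cell. Within UV, Krt6b was lower in follicle than in interfollicular cells, at 86.0 against 167.2 CPM, opposite in direction to Krt6a.

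Krt16, a type I keratin usually paired with Krt6a and Krt6b, was present in all 3 libraries at levels much closer together. In interfollicular cells it stood at 357.5 CPM [352.7, 362.3] in UV plus vitamin D, 814.2 CPM [803.3, 825.1] in UV and 592.5 CPM [586.6, 598.5] in control. UV was again the highest library, and UV plus vitamin D was below control. In follicle cells the levels were 542.2 CPM [510.3, 575.6], 743.6 CPM [719.6, 768.2] and 606.6 CPM [581.2, 632.7], in the same order of libraries. With each cell thinned to 2800 counts the follicle levels were 809.7, 765.3 and 729.8 CPM, in another order, so the order in the follicle is not firm. The follicle level of Krt16 was 1.52-fold [1.43, 1.61] above the interfollicular one in UV plus vitamin D, 1.09-fold [1.06, 1.13] below it in UV, and within counting error of it in control, at 1.02-fold [0.980, 1.07].

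Krt17, the type I keratin of the follicle sheath and of other skin appendages, was the follicle keratin of the set. In follicle cells it stood at 6550 CPM [6438, 6664] in UV plus vitamin D, 5364 CPM [5300, 5430] in UV and 7417 CPM [7328, 7507] in control. In interfollicular cells it stood at 746.9 CPM [740.1, 753.8], 642.2 CPM [632.5, 652.0] and 483.7 CPM [478.3, 489.1]. The follicle was thus 8.77-fold [8.60, 8.94], 8.35-fold [8.19, 8.52] and 15.3-fold [15.1, 15.6] above the interfollicular cells of its own library, where 1.6%, 2.21% and 1.55% of all genes were called higher in the follicle, a call being a 1.5-fold difference in CPM plus 10. The order of libraries differed between the classes: control was the highest in follicle cells and the lowest in interfollicular cells.

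**Figure D1:**
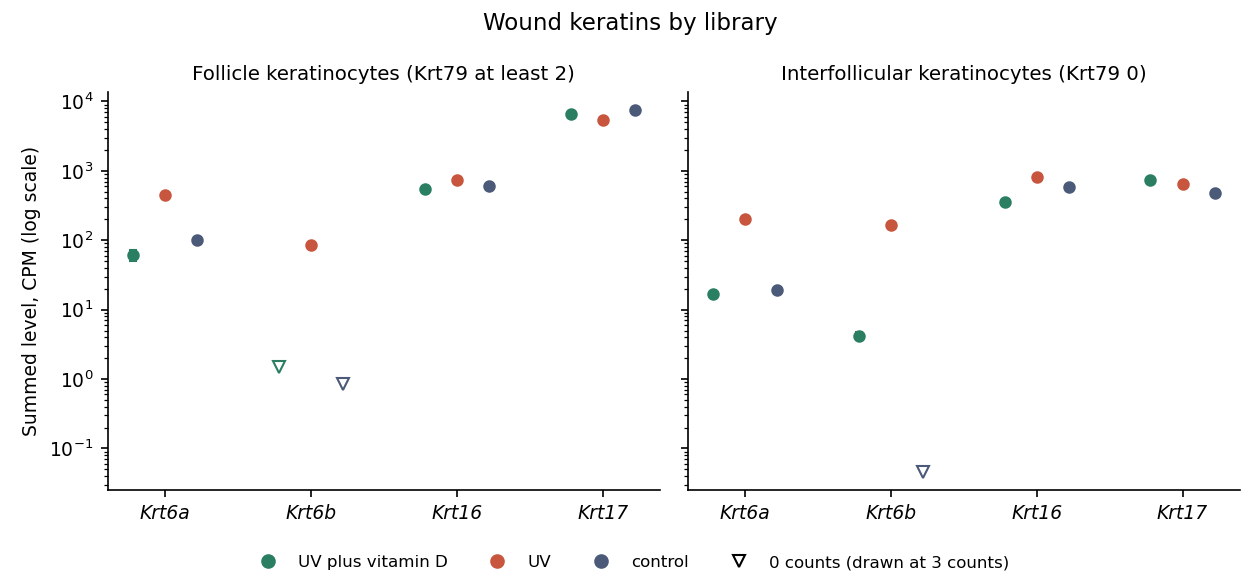
Summed level of each wound keratin (CPM, log axis) in follicle (left) and interfollicular (right) keratinocytes, 1 point per library in the order UV plus vitamin D, UV, control; bars are 95% Poisson intervals, mostly smaller than the points, and open triangles mark 0 counts, drawn at the level of 3 counts. Krt6a and Krt6b stand apart in UV (204.3 and 167.2 CPM in interfollicular cells), while the points of Krt16 and of Krt17 lie closer together.

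The Krt79 threshold cut through a gradient of Krt17. In control, Krt17 stood at 403 CPM in cells with 1 count of Krt79, which belong to neither class, and at 914 CPM in those with 2 to 4, just inside the follicle class. It stood at 5333 CPM in cells with 5 to 19 counts and at 16513 CPM in those with at least 100. The 119 control cells with 2 to 4 counts of Krt79 were deep, with a median of 9554 counts, and in their Krt17 level were nearer to interfollicular cells than to the rest of the follicle class. In UV, Krt17 reached 11889 CPM and Krt6a 711 CPM at 100 or more counts of Krt79, against 903 and 108 CPM at 2 to 4. In UV plus vitamin D, Krt17 reached 18562 CPM at 100 or more counts, against 1147 CPM at 2 to 4.

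The comparison of UV with control asks what irradiation changed. A gene was called when it had at least 20 counts in the higher library and its CPM plus 10 differed by at least 1.5-fold. In interfollicular cells 2 of the 4 members were called higher in UV and 0 lower, where 2.42% of the 12354 genes tested were called higher and 1.4% lower. Krt6a was 10.8-fold [10.2, 11.5] higher, and Krt6b was at least 3613-fold higher, computed against 3 counts in the control class. Krt16 was 1.37-fold [1.35, 1.40] and Krt17 1.33-fold [1.30, 1.35] higher, which is outside counting error but short of the fold used for a call. For Krt16 this depended on the keratinocyte gate: with at least 5% of counts from the keratinocyte genes and 50 times the other lineages, which kept 64.2% of UV and 45.8% of control interfollicular cells and left under 1% basal cells, it was 2.23-fold higher.

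In follicle cells 2 of the 4 members were also called higher in UV than in control, where 5.33% of 8042 genes were called higher and 2.96% lower. Krt6a was 4.45-fold [3.98, 4.99] higher and Krt6b at least 101.7-fold higher. The Krt6b value rested on few cells: without the 5 cells holding the most counts its log2 ratio was 1.06, against 3.26 with them. Krt16 was 1.23-fold [1.16, 1.29] higher, and 1.95-fold higher under the stricter gate. Krt17 went the other way, with 5364 CPM in UV against 7417 CPM in control, 1.38-fold [1.36, 1.41] lower and not called. Krt6a and Krt6b thus stood higher in UV in both classes, whereas for Krt17 the direction differed between them. The layer make-up of the follicle class moved with these values, since basal-type cells were 133 of 472 in UV and 44 of 442 in control. Among suprabasal-type follicle cells Krt6a stood at 215.2 CPM in UV against 103.2 CPM in control, 2.09-fold [1.84, 2.37] higher, and Krt17 was 1.49-fold [1.46, 1.52] lower. Among basal-type follicle cells Krt6a stood at 1558 CPM in UV against 71.3 CPM in control, where the control value came from 18 counts.

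The comparison of UV plus vitamin D with UV asks what the treatment changed in irradiated skin. It shares the UV library with the comparison above, so the values of both are given side by side and their likeness is not a separate result. In interfollicular cells 3 of the 4 members were called lower in UV plus vitamin D and 0 higher, where 1.39% of 12162 genes were called lower and 0.321% higher. Krt6a was 12.3-fold [11.5, 13.2] lower, Krt6b 39.6-fold [34.95, 45.1] lower and Krt16 2.28-fold [2.23, 2.32] lower. Krt17 was 1.16-fold [1.14, 1.18] higher. In follicle cells 2 members were called lower and 0 higher, where 3.8% of 7893 genes were called lower and 1.41% higher. There Krt6a was 7.44-fold [6.19, 9.01] lower and Krt6b at least 56.9-fold lower, while Krt16 was 1.37-fold [1.28, 1.47] lower and Krt17 1.22-fold [1.20, 1.25] higher, neither of them called. The follicle value of Krt16 depended on the processing: the stricter gate gave a log2 ratio of -0.99, past the call, while thinning each cell to 2800 counts gave 0.08, with the direction turned. Basal-type cells were 19 of 206 follicle cells in UV plus vitamin D and 133 of 472 in UV, and among suprabasal-type ones Krt6a was 4.16-fold [3.36, 5.19] lower.

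The comparison of UV plus vitamin D with control asks what remained different. In interfollicular cells 1 of the 4 members was called higher and 1 lower, where 1.55% of 12412 genes were called higher and 0.943% lower. Krt17 was 1.54-fold [1.52, 1.57] higher and Krt16 1.66-fold [1.63, 1.69] lower, and both calls lie close to the fold used: with every cell thinned to 2800 counts the log2 ratios of CPM plus 10 were 0.52 and -0.54, and neither was called. Krt6a was 1.14-fold [1.05, 1.24] lower and was not called. Krt6b was at least 91.1-fold higher than the control floor, but on 257 counts of which 1 cell held 42.8%, and it was not called on CPM plus 10. In follicle cells 0 of 3 members tested were called higher and 1 lower, where 2.49% of 7118 genes were called higher and 2.61% lower. That member was Krt6a, 1.67-fold [1.35, 2.07] lower on 120 counts, and a stricter gate on keratinocytes ended the call.

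Shares of cells with a count separate how many cells carried a keratin from how much each carried, and were taken after thinning each cell to 2800 counts so that depth did not set them. Thinning also moved cells whose few Krt79 counts were lost into the interfollicular class. In interfollicular cells Krt6a was found in 3.32% [2.86, 3.83] of UV plus vitamin D cells, 14.3% [13.0, 15.6] of UV cells and 3.62% [3.21, 4.06] of control cells. Before thinning these shares were 5.85%, 22.3% and 6.20%. Cells of other lineages, which should lack the gene, showed it in 0%, 2.38% and 0% after thinning, at median depths before thinning of 4824.5, 5158 and 4492 counts. The UV share therefore stood well above the background of its own library.

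Krt6b was found in 0.109% [0.0402, 0.238] of UV plus vitamin D interfollicular cells, 5.58% [4.77, 6.48] of UV cells and 0.0129% of control cells after thinning, and in 0.208%, 8.76% and 0% before. The single control cell carried a count of Krt79 before thinning. Other lineages showed Krt6b in 1.62% [0.944, 2.57] of UV cells after thinning. Before thinning it was in none of 266 UV plus vitamin D and 305 control cells of other lineages, which allows up to 1.13% and 0.984%. In UV follicle cells the thinned share of Krt6b, 2.0% [0.808, 4.08], lay close to that background.

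Krt16 was found in 36.9% [35.6, 38.2], 52.7% [50.9, 54.5] and 48.0% [46.9, 49.2] of thinned interfollicular cells in UV plus vitamin D, UV and control, against 10.9%, 9.32% and 10.7% of other-lineage cells. Before thinning the interfollicular shares were 52.0%, 68.1% and 63.3%. The order of the libraries was that of the summed levels. For Krt17 the thinned shares were 31.5% [30.2, 32.7], 31.0% [29.3, 32.7] and 31.0% [30, 32.1], so about the same share of cells carried it in each library although the summed levels differed. The unthinned shares of Krt17 were 48.8%, 50.2% and 46.4%, and its background in other lineages was 13.6%, 13.1% and 13.3% thinned. In follicle cells Krt17 was found in 94.4%, 88.0% and 95.1% of thinned cells, and in 93.7%, 87.3% and 91.2% before thinning.

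The follicle shares of Krt6a were 12.4%, 30.3% and 13.0% after thinning and 16.0%, 35.4% and 13.8% before. UV was the highest library here too, as in the summed levels. For Krt16 the thinned follicle shares were 52.2%, 52.3% and 59.1%, which go against the order of the summed levels, so no order is read from them. Before thinning they were 65.05%, 65.04% and 67.9%.

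**Figure D2:**
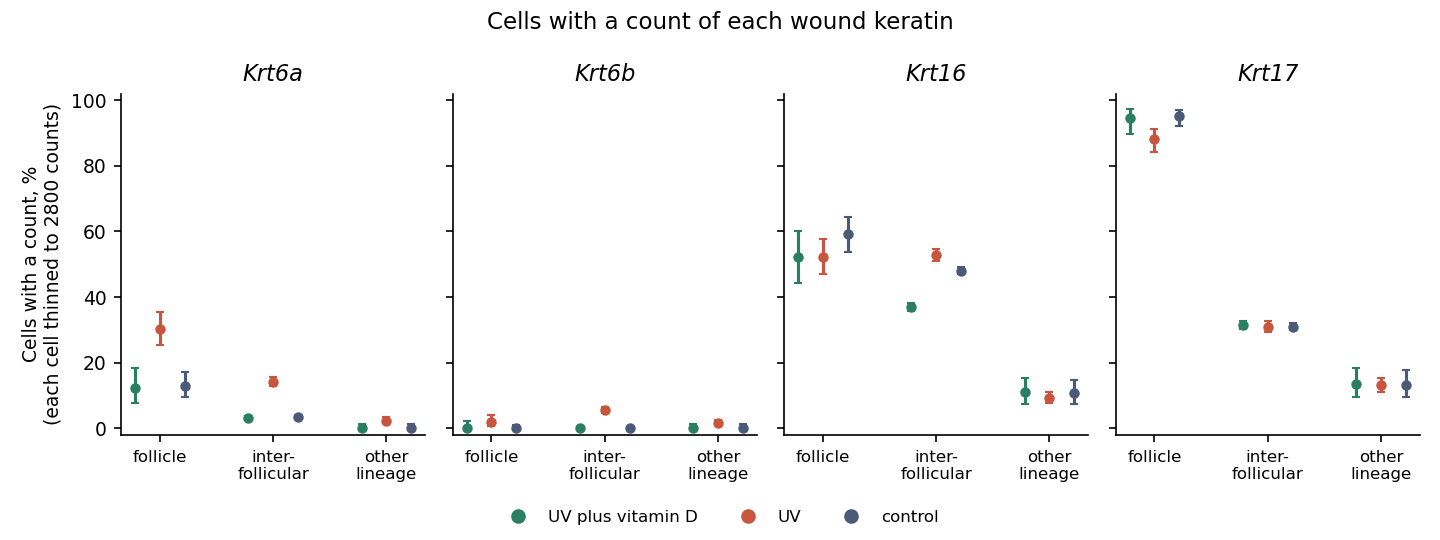
Share of cells with at least 1 count of each wound keratin (%, each cell thinned to 2800 counts) in follicle, interfollicular and other-lineage cells, 1 point per library with its 95% binomial interval. Krt6a and Krt6b stand highest in UV among interfollicular cells (14.3% and 5.58%), whereas the 3 interfollicular points of Krt17 lie together near 31%.

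The counts were also unevenly held. In UV interfollicular cells 44 of 2398 cells held at least 50% of the Krt6a counts, and the 1% of cells richest in Krt6b held 63.8% of its counts. Krt16 was spread more evenly, with 11.1% of its UV counts in the richest 1% of cells. For Krt17 the richest 1% held 22.1%, 26.5% and 25.9% of the counts in UV plus vitamin D, UV and control. Cells with at least 5 counts of Krt6a were 1.12% of the interfollicular class in UV plus vitamin D, 9.09% in UV and 0.911% in control.

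Layers within the interfollicular class were told apart by their main keratins, basal cells having more counts of Krt5 plus Krt14 than of Krt1 plus Krt10. Krt6a was higher in basal than in suprabasal cells of each library. It stood at 68.4 CPM in basal cells of UV plus vitamin D, 951.7 CPM in those of UV and 52.4 CPM in those of control. In suprabasal cells it stood at 12.3, 119.0 and 14.3 CPM. Basal cells were thus 5.58-fold [4.77, 6.52], 8.0-fold [7.52, 8.51] and 3.66-fold [3.19, 4.18] above suprabasal ones, where 13.1%, 16.7% and 8.87% of all genes were called higher in basal cells and 13.3%, 15.8% and 12.2% lower. UV exceeded control in both layers, by 18.2-fold [16.1, 20.5] in basal and 8.30-fold [7.62, 9.04] in suprabasal cells.

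Krt6b stood at 326.9 CPM in UV basal cells, from 22 of 395 cells, and at 176.5 CPM in UV suprabasal cells, from 144 of 1515 cells. The basal value rested on few cells, 3 of which held at least 50% of the counts. In control both layers had 0 counts, and in UV plus vitamin D the basal layer had 2.

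Krt16 and Krt17 differed between UV and control in opposite directions in the 2 layers. In basal cells Krt16 stood at 1120 CPM in UV plus vitamin D, 986.3 CPM in UV and 1196 CPM in control, and was 1.21-fold [1.15, 1.27] lower in UV than in control. In suprabasal cells it stood at 341.4, 833.4 and 551.8 CPM, and was 1.51-fold [1.48, 1.54] higher in UV than in control. The UV library was the lowest of the 3 in basal cells and the highest in suprabasal ones. Krt17 stood at 1264, 907.3 and 1229 CPM in basal cells and was 1.35-fold [1.29, 1.43] lower in UV than in control, while in suprabasal cells it stood at 538.6, 465.3 and 295.2 CPM and was 1.58-fold [1.53, 1.62] higher. All 4 members were therefore called higher in UV than in control in suprabasal cells, where 2.52% of 11620 genes were, and only Krt6a and Krt6b in basal cells, where 5.16% of 8411 genes were called higher and 3.11% lower. The call of Krt16 in suprabasal cells lay at the fold used, with a log2 ratio of 0.59. The difference between the layers was not tested.

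**Figure D3:**
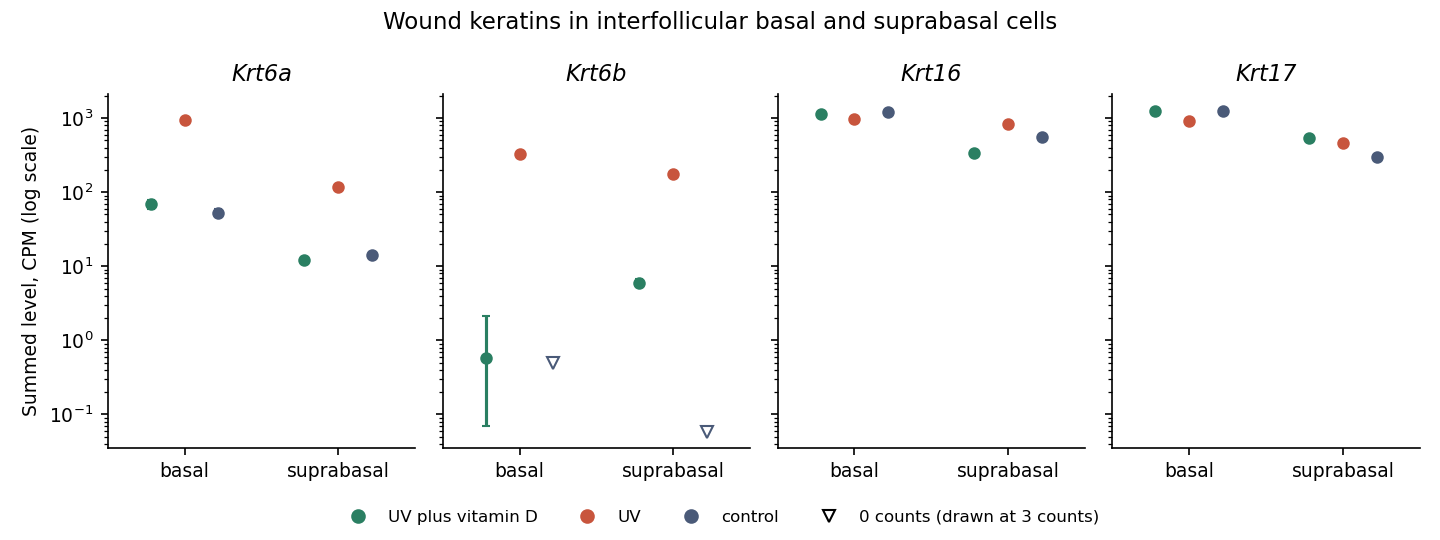
Summed level of each wound keratin (CPM, log axis) in basal and suprabasal interfollicular cells, 1 point per library in the order UV plus vitamin D, UV, control, with 95% Poisson intervals; open triangles mark 0 counts, drawn at the level of 3 counts. UV is the highest library for Krt6a and Krt6b in both layers, but for Krt16 it is the lowest in basal (986.3 CPM) and the highest in suprabasal cells (833.4 CPM).

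Set against UV, UV plus vitamin D had 0 members called higher and 2 lower in basal cells, where 5.17% of 7445 genes were called higher and 3.91% lower. The lower ones were Krt6a and Krt6b, while Krt16 was 1.14-fold [1.08, 1.20] and Krt17 1.39-fold [1.32, 1.47] higher. In suprabasal cells 0 were called higher and 3 lower, where 0.362% of 11311 genes were called higher and 1.28% lower. There Krt16 was 2.44-fold [2.39, 2.50] lower.

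In UV plus vitamin D against control, 0 of 3 members tested were called in basal cells, where 2.46% of 8412 genes were called higher and 0.915% lower. In suprabasal cells 2 were called higher and 1 lower, where 1.62% of 11721 genes were called higher and 0.896% lower. The higher ones were Krt17 and Krt6b, and Krt6b rested on 255 counts from 10 of 3794 cells, against 0 counts in control. Suprabasal cells of UV plus vitamin D had 1.82-fold [1.79, 1.86] more Krt17 than those of control and 1.62-fold [1.58, 1.65] less Krt16. In basal cells of the same libraries Krt17 differed by 1.03-fold [0.990, 1.07] and Krt16 was 1.07-fold [1.03, 1.11] lower. In the cells with bulge-list counts, described next, Krt17 was 1.04-fold [1.02, 1.07] higher and Krt16 1.70-fold [1.61, 1.78] lower. With the layers weighted as in control, a choice made after seeing the data, neither difference of the whole interfollicular class was called, at log2 ratios of 0.49 for Krt17 and -0.55 for Krt16.

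The remaining 905, 488 and 558 interfollicular cells had at least 2 counts from a list of bulge and outer root sheath genes, but the data go against that name. They were deep, with medians of 15144, 13648 and 12714 counts, and carried 13959, 16657 and 14636 CPM of Krt10 against 170.1, 360.8 and 465.1 CPM of Krt5. Krt17 in these cells stood at 1230, 1009 and 1178 CPM, above the 592.5, 513.8 and 393.3 CPM of interfollicular cells without such counts. Krt6a stood at 16.9, 186.5 and 23.2 CPM in them, near the 16.4, 210.5 and 18.3 CPM of the others. In these cells 3 members were called higher in UV than in control, where 2.8% of 8784 genes were called higher and 2.32% lower. In UV plus vitamin D against UV 3 were called lower, where 0.614% of 9451 genes were called higher and 2.21% lower, and against control 1 was called lower, where 0.798% of 9398 genes were called higher and 1.69% lower. Krt16 was lower than in the other interfollicular cells, at 226.8, 711.1 and 385.1 CPM against 399.2, 850.2 and 619.5 CPM.

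Co-expression was taken per cell, as the odds ratio of finding a count of one member in cells with and without a count of another. All 6 pairs of members had an odds ratio above 1 in UV interfollicular cells. The closest pair was Krt6a with Krt6b: 135 of 2398 cells had counts of both, where 46.8 would be expected if the 2 were independent, an odds ratio of 8.07. Krt6b was found in 25.3% of the 534 cells with Krt6a and in 4.02% of those without. After thinning, which lessens the part of depth, 108 cells had both where 22.8 were expected, and the odds ratio was 16.6.

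The same pairing was seen in each layer of UV skin. In UV basal cells 10.7% of Krt6a-positive cells also had Krt6b, an odds ratio of 5.53, and after thinning all 15 Krt6b-positive basal cells had Krt6a. In UV suprabasal cells 35.4% of Krt6a-positive cells had Krt6b, an odds ratio of 12.3 as deposited and 28.2 after thinning. In UV follicle cells 17 of 472 had both, an odds ratio of 5.65. After thinning only 7 of 350 follicle cells had Krt6b, and 4 had both where 2.12 were expected, an odds ratio of 3.15. In UV cells of other lineages 2 of 1045 had both where 1.49 were expected, an odds ratio of 1.38. Only 4 interfollicular cells of UV plus vitamin D had both, where 0.644 were expected.

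Krt6b also went with Krt16, its filament partner by type. In UV interfollicular cells 87.6% of Krt6b-positive cells had Krt16, against 66.3% of the rest, an odds ratio of 3.602 as deposited and 6.09 after thinning. For Krt6a with Krt16 the odds ratio was 2.11 in UV plus vitamin D, 1.77 in UV and 2.23 in control. For Krt6a with Krt17 it was 2.03, 1.75 and 2.14. Over the whole interfollicular class, cells with Krt6a thus carried Krt16 and Krt17 more often in each library. The layers of the UV library differed in this. In UV basal cells, Krt6a and Krt16 were found together in 112 cells where 112.3 were expected, an odds ratio of 0.985. That of Krt6a with Krt17 was 1.16 there. Basal cells of UV plus vitamin D and control had odds ratios of 2.58 and 1.76 for Krt6a with Krt16. After thinning, that of UV plus vitamin D was 1.24, nearer to the 0.987 of UV. For Krt6a with Krt17 the basal values of UV plus vitamin D and control were 2.14 and 1.78 as deposited. After thinning, UV plus vitamin D stood at 2.16 and UV at 1.07. In suprabasal cells the odds ratio of Krt6a with Krt16 was 1.48, 2.69 and 1.86, and that of Krt6a with Krt17 was 1.49, 1.59 and 1.55. For Krt16 with Krt17 the odds ratio over the whole interfollicular class was 1.45, 1.78 and 2.17. In basal cells it was 4.88, 3.29 and 5.71, and in suprabasal cells 1.19, 1.40 and 1.79. After thinning, the basal and suprabasal values of UV plus vitamin D were 2.98 and 0.930. Rank correlations over the whole interfollicular class were low, the highest as deposited being 0.37 for Krt6a with Krt6b over the 2398 UV cells, which share library and depth. Within layers, Krt6a with Krt6b reached 0.45 in UV suprabasal cells and Krt16 with Krt17 0.40 in control basal cells.

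In follicle cells almost every cell had Krt17, which leaves little room for association. There Krt6a with Krt17 had an odds ratio of 0.398 in UV plus vitamin D, 2.16 in UV and 6.65 in control, but only 13 of the 206 UV plus vitamin D cells lacked Krt17. Krt6a with Krt16 stood at 1.53, 1.92 and 2.38.

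At least 2 of the 4 members were found in 14.9% [14.0, 15.9] of thinned interfollicular cells in UV plus vitamin D, 26.1% [24.5, 27.7] in UV and 20.5% [19.6, 21.4] in control, and in 2.64%, 3.33% and 2.67% of other-lineage cells. Before thinning the interfollicular shares were 29.8%, 46.9% and 35.6%. At least 3 members were found in 1.22%, 7.53% and 1.64% of thinned interfollicular cells. All 4 were found in 3 cells of UV plus vitamin D, 55 of UV and 0 of control. In thinned follicle cells at least 2 members were found in 54.0%, 60.6% and 61.2%, and at least 3 in 7.45%, 18.6% and 9.86%.

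**Figure D4:**
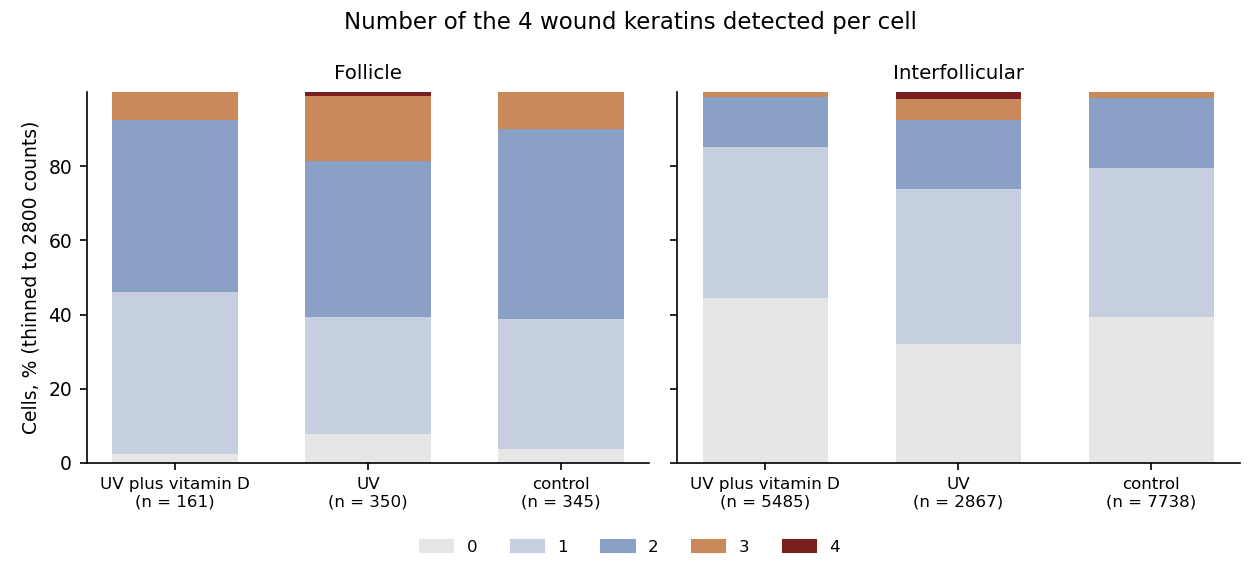
Share of cells (%, thinned to 2800 counts) in which 0 to 4 of the wound keratins were detected, for follicle (left) and interfollicular (right) keratinocytes, 1 bar per library in the order UV plus vitamin D, UV, control. Cells with all 4 are 3 interfollicular cells in UV plus vitamin D (too few to see), 55 in UV and 0 in control, and follicle cells with none are few in each library.

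The cells rich in each keratin, with at least 5 counts of it, differed in part between the members within UV interfollicular skin. Among the 218 cells rich in Krt6a, 32.6% were basal, against 12.7% of the 1864 cells with none. They had 2085 CPM of Krt5 against 487.1 CPM, and 1796 CPM of Krt6b against 10.1 CPM. Suprabasal cells were 43.6% of them, against 67.7% of those with none, and Krt1 was also higher in them, at 7695 against 3382 CPM. The 101 cells rich in Krt6b were less often basal, 11.9% against 17.1% of those without, with 331.9 CPM of Krt5 against 760.9 CPM in cells without Krt6b, 9.26 CPM of the basal and bulge keratin Krt15 against 204.0 CPM, and 12008 CPM of Krt1 against 3195 CPM. Krt14 was higher in them, at 2383 against 1170.4 CPM. They also carried 3292 CPM of Krt16 against 667.4 CPM.

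The 996 cells rich in Krt16 had 5461 CPM of Krt1 against 2385 CPM in cells with none, and less of the granular layer list, 4356 against 14059.5 CPM. The 446 cells rich in Krt17 went the other way, with 3144 CPM of Krt1 against 4003 CPM and 11630.3 CPM of the granular list against 7155 CPM. The upper follicle list was higher in the rich cells of each member, at 7536 against 4198 CPM for Krt6a, 10706.5 against 4169 CPM for Krt6b, 4951 against 4265 CPM for Krt16 and 7144 against 3639 CPM for Krt17. Sums over 30 other wound epidermis genes were higher in the rich cells of every member: 11991 against 5286 CPM for Krt6a, 17059 against 5299 CPM for Krt6b, 8335 against 4425 CPM for Krt16 and 8170 against 4992 CPM for Krt17. The listed gene Sprr1b alone stood at 3219 CPM over all UV interfollicular cells, so it has a large part in these sums. Markers of other lineages hardly differed between rich and empty cells, at 281.9 against 287.1 CPM for Krt6a and 304.9 against 289.7 CPM for Krt6b. In UV plus vitamin D and control, both the upper follicle and wound lists were higher in interfollicular cells rich in Krt6a or Krt17. Both were lower there in cells rich in Krt16, the wound list at 3453 against 4059 CPM in UV plus vitamin D and 2426 against 2922 CPM in control.

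**Figure D5:**
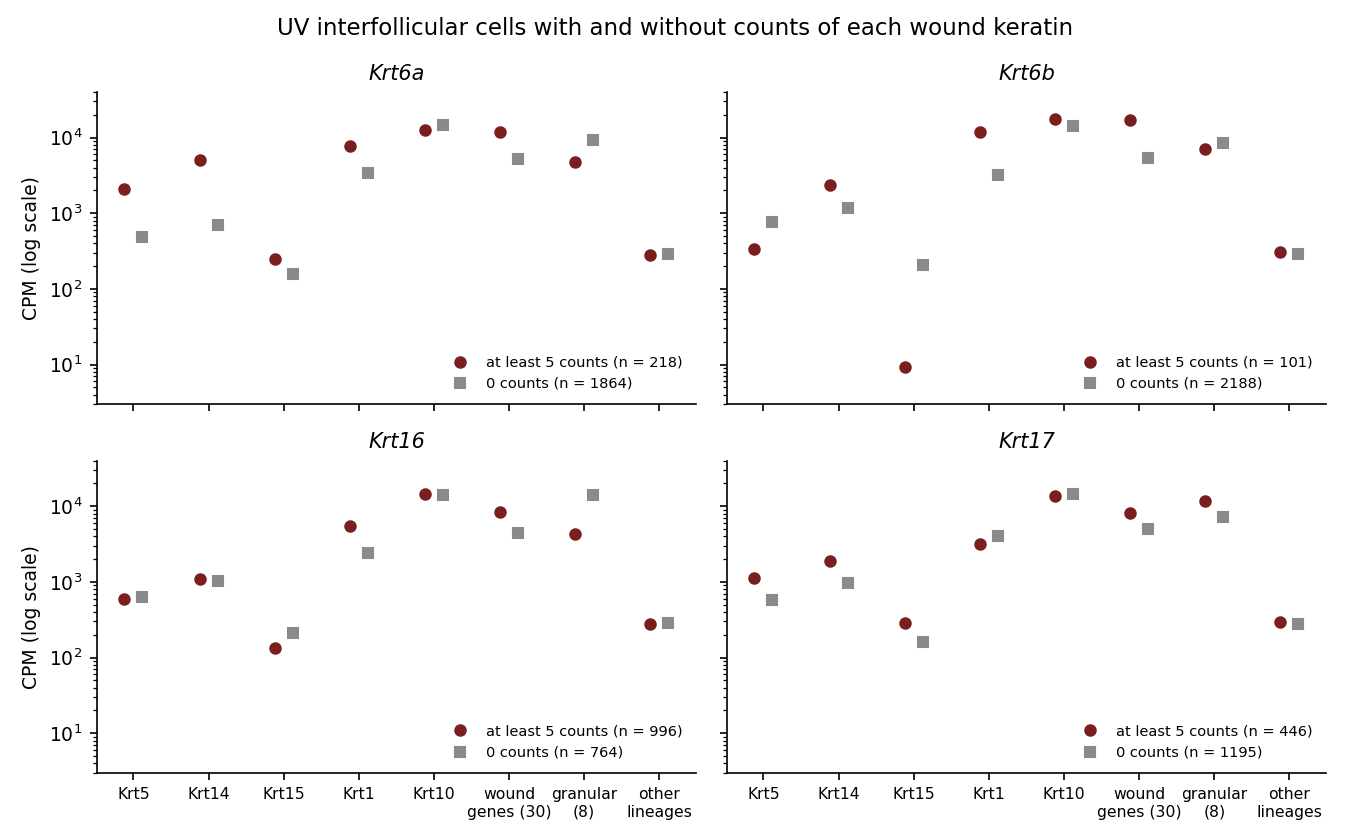
Levels (CPM, log axis) of epidermal keratins and of summed gene lists in UV interfollicular cells with at least 5 counts of each wound keratin (circles) and with 0 counts (squares); n gives the cells. Krt6a-rich and Krt6b-rich cells both have more Krt14 and Krt1. Krt6a-rich cells also have more Krt5, Krt6b-rich cells have little Krt15 (9.26 CPM), and the other-lineage lists lie together.

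Of 22 other epithelial keratins, 14 were tested between UV and control in interfollicular cells. Of these, 1 was called higher and 1 lower, where 2.42% of all genes tested were called higher and 1.4% lower. Their median log2 ratio was 0.21, against -0.02 over all genes tested. The keratin called higher was Krt7, a simple-epithelium keratin, with 10.2 CPM in UV against 2.35 CPM in control. The keratin called lower was Krt15, with 189.0 CPM in UV plus vitamin D, 187.2 CPM in UV and 437.2 CPM in control. Krt1 was 1.499-fold [1.49, 1.51] higher in UV than in control, just under the call, and 2.01-fold lower in UV plus vitamin D than in UV. Krt14 was 1.35-fold and Krt10 1.25-fold higher in UV than in control, and Krt5 1.05-fold lower. Krt23 was 1.39-fold higher in UV than in control and 1.29-fold higher in UV plus vitamin D than in UV.

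In interfollicular cells of UV plus vitamin D against UV, 0.321% of all genes tested were called higher and 1.39% lower. Of 13 other keratins tested there, 1 was called higher and 4 lower. The 4 lower ones were Krt1, Krt5, Krt7 and Krt14, and the higher one was Krt2, a keratin of the upper epidermis, with 68.4 CPM in UV plus vitamin D against 13.6 CPM in UV, named after its value was seen. Krt14 was 2.07-fold lower, with 583.1 CPM in UV plus vitamin D against 1206 CPM in UV, and Krt5 1.65-fold lower, with 435.4 CPM in UV plus vitamin D against 716.8 CPM in UV. The basal share moved with these values: basal cells were 579 of 5278 interfollicular cells in UV plus vitamin D, 395 of 2398 in UV and 1155 of 7247 in control. Within basal cells alone Krt6a was still 13.9-fold [12.1, 16.0] lower in UV plus vitamin D than in UV, and within suprabasal cells 9.70-fold [8.81, 10.7] lower.

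Of 30 wound epidermis genes listed, 27 were tested between UV and control in interfollicular cells, 10 were called higher and 2 lower, where 2.42% of all genes tested were called higher and 1.4% lower. Their median log2 ratio was 0.32, against -0.02 over all genes. The genes called lower were Il33 and Ptgs2, the inducible prostaglandin synthase, which was named after its value was seen and was 1.68-fold lower. Sprr1b, a cornified envelope precursor, had 616.9 CPM in UV plus vitamin D, 3219 CPM in UV and 390.7 CPM in control. S100a8, an alarmin also abundant in neutrophils, whose part here was not tested, had 0.148 CPM in UV plus vitamin D, 51.9 CPM in UV and 0.571 CPM in control. Mmp9, a matrix protease, had 14.5 CPM in UV against 0.201 CPM in control. Il33, a nuclear alarmin of keratinocytes, went the other way, with 50.5 CPM in UV plus vitamin D, 86.8 CPM in UV and 191.0 CPM in control. Of the 27 tested in UV plus vitamin D against UV, 1 was called higher and 8 lower, where 0.321% and 1.39% of all genes were. The median log2 ratio of the 27 was -0.17, against 0.01 over all genes. The one called higher was Slpi, a secreted protease inhibitor named after its value was seen, with 174.2 CPM in UV plus vitamin D against 69.8 CPM in UV.

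Of 25 genes reported to regulate the stress keratins, 22 were tested between UV and control, 1 was called higher and 2 lower, against the same 2.42% and 1.4% of all genes, and the median log2 ratio was -0.19 against -0.02. Cebpb, a transcription factor of the C/EBP family, was higher, with 58.4 CPM in UV against 33.5 CPM in control. Fosb, an AP-1 subunit, and Nfe2l2, the oxidative stress factor reported to drive Krt6a, Krt16 and Krt17, were lower, with 53.5 against 99.1 CPM and 48.2 against 80.6 CPM. Il1r1, the receptor of interleukin 1, was 1.91-fold lower in UV than in control and was not called, with 10.2 against 19.5 CPM. Of the 22 tested in UV plus vitamin D against UV, 0 were called higher and 1 lower, against 0.321% and 1.39% of all genes. The 1 called lower was the AP-1 subunit Fos, named after its value was seen. It had 102.1 CPM in UV plus vitamin D against 193.9 CPM in UV.

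Across 12 points, the 3 libraries by basal, suprabasal, bulge-list and follicle cells, the genes whose log2 levels ran most like each member were sought among 9858 genes. The points of a library share its depth and its free RNA, so the values are descriptions. Picking the top 5 of 9858 genes over 12 points also favours high values. Krt6b was most like 2610528A11Rik (Pearson r = 0.99), Slfn2 (0.98), BC100530 (0.98), Col3a1 (0.97) and Stfa1 (0.97). Stfa1 is a stefin A protease inhibitor, and BC100530 reached 4128 CPM at its highest point against 5.36 CPM at its lowest. Col3a1 is a fibroblast collagen that reached 25.7 CPM in these keratinocyte classes, so this likeness includes a gene of another lineage, and the part of free RNA in it was not tested. Krt6a was most like 2610524H06Rik (0.95), Uqcc2 (0.94), Cox8a (0.92), Stfa3 (0.92) and Npc2 (0.91), of which Uqcc2 and Cox8a serve the mitochondrial respiratory chain. The level of 2610524H06Rik was low, from 1.71 to 12.6 CPM. Uqcc2 ran only from 124.3 to 230.6 CPM and Cox8a from 351.2 to 524.3 CPM, while Krt6a ran from 12.3 to 951.7 CPM.

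Krt16 was most like Hnrnpul2 (0.92), Palmd (0.90), Gm9493 (0.90), Serinc2 (0.87) and Ppp4r1l-ps (0.87). Gm9493 and Ppp4r1l-ps reached at most 6.47 and 8.96 CPM, and Hnrnpul2 ran only from 28.3 to 39.3 CPM. Krt17 was most like Ampd2 (0.93), Pdlim4 (0.93), Hpcal1 (0.92), Ephx2 (0.92) and the brain-type creatine kinase Ckb (0.92). Ampd2 and Ephx2 reached at most 9.57 and 6.14 CPM. Among the members themselves Krt6a and Krt6b ran together (0.82), Krt6a and Krt16 less so (0.61), and Krt17 ran with none of the others (between -0.17 and 0.31).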

How the data were processed

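Per the submitters' processing notes, reads were handled with FastQC, fastp, STAR and featureCounts, and the notes name GRCh38, a human build, although the gene symbols are those of mouse; no coordinates are given here. The authors deposited 1 table of raw counts for each library, genes by cells. Whether a count is a molecule or a read is unstated, and the intervals treat it as a molecule. Cells with at least 200 genes and at most 20% mitochondrial counts were kept, and no doublet caller was run. Summed counts were turned into CPM of the class total, with exact Poisson intervals for levels, exact binomial (Clopper-Pearson) intervals for shares and conditional intervals for ratios, at 95% and for counting error only. Folds against 0 counts used a floor of 3 counts per library and class. With 1 library per group no test was run. The members and all gene lists were chosen with earlier results of these data known. Besides the members, the text names by rule the 5 genes most like each member and the 4 genes of each list with the largest log2 ratio for UV against control, plus Krt5, Krt14, Krt1 and Krt10. Transcripts came from GENCODE and gene order from RefSeq. Analyses used Python 3.11.15, numpy 2.4.6, scipy 1.17.1 and pandas 2.3.3, and ratios and calls were tested on simulated data.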

Additional observations from a re-analysis of the deposited data

Results flagged for a closer look

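Several ratios pointed in opposite directions in different cells, and none of these differences was tested, since each rests on 1 library per group. For UV against control, the ratio of Krt16 was 0.825 in basal and 1.51 in suprabasal cells, and that of Krt17 was 0.738 in basal and 1.58 in suprabasal cells. For the same comparison, the ratio of Krt17 was 0.723 in follicle and 1.33 in interfollicular cells. For UV plus vitamin D against UV, the ratio of Krt16 was 1.14 in basal and 0.410 in suprabasal cells. For UV plus vitamin D against control, the ratio of Krt6a was 1.31 in basal and 0.855 in suprabasal cells, and that of Krt17 was 0.883 in follicle and 1.54 in interfollicular cells.

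The members were also found in UV cells outside both keratinocyte classes. In UV keratinocytes with 1 count of Krt79, Krt6a stood at 123 CPM, Krt6b at 110 CPM, Krt16 at 733 CPM and Krt17 at 669 CPM. In UV cells of other lineages Krt6a stood at 18.9 CPM and Krt6b at 6.70 CPM. In UV cells that met no class, Krt6a stood at 163 CPM, Krt6b at 6.43 CPM and Krt17 at 1647 CPM. In the 53 UV cells of the hair matrix class, which the other libraries lacked, Krt6a stood at 38.1 CPM, Krt16 at 186 CPM and Krt17 at 777 CPM.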

How the results depend on the processing

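No member's called ratio changed sign under any alternative tried, but 3 uncalled log2 ratios did. Krt6a in UV plus vitamin D against control, interfollicular, ran from -0.18 to 0.10. In the follicle, Krt16 ran from -0.99 to 0.08 in UV plus vitamin D against UV and from -0.23 to 0.15 against control. Of the log2 ratios recomputed, 165 stayed within their counting interval and 110 moved beyond it. The number of members called higher was unchanged or within 1.5 times in 67 recomputations and moved in 5, and the number called lower in 68 and 4. A change between 2 and 3 members lies within 1.5 times and was not counted as moved. With the stricter gate, Krt16 passed the call in UV against control, at log2 ratios of 1.13 in interfollicular and 0.95 in follicle cells. In follicle cells it also passed in UV plus vitamin D against UV, at -0.99. The counts of calls that moved beyond 1.5 times all concern UV plus vitamin D against control. In interfollicular cells the number called higher, 1 as reported, became 2 with a pseudocount of 1 CPM, 0 with equal weight for each cell, 0 with each cell thinned to 2800 counts, 2 with the gate of 5% and 50 times, and 0 with layers weighted as in control, which was chosen after seeing the data. The number called lower there, 1 as reported, became 0 with thinning, 0 with the stricter gate and 0 with layers weighted as in control. In follicle cells the number called lower, 1 as reported, became 0 with the stricter gate. The number of pairs with an odds ratio above 1 in UV plus vitamin D follicle cells, 2 as reported, became 1 when a member needed at least 2 counts. The cause of these moves was not tested. No paired analysis was possible because each group had 1 library. The follicle values of UV plus vitamin D rest on 206 cells, with 120 counts of Krt6a.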
